A study of Mus musculus with 6 samples.

Results

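The genes described here are the ADP-ribosyltransferase genes Parp9, Parp10, Parp11, Parp12 and Parp14, which are linked to interferon, the ubiquitin ligase gene Dtx3l, and 4 other members of the PARP family, Parp3, Parp8, Parp1 and Parp2. They were chosen by name, and each was read from 1 probe set, the brightest over the 6 arrays among the probe sets annotated to that gene alone. Of the 10 genes, 8 had such a probe set, among 22180 genes measured in this way. Dtx3l and Parp10 had none, because the probe set for Dtx3l is also annotated to Parp9 and the one for Parp10 also to Plec, so no value is given for either gene.

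Expression was measured in 6 tumours of B16-F1 cells, a pigmented mouse melanoma line, 1 array per tumour. The cells were implanted at the dorsal flank of mice of C57BL6 background. Of the tumours, 3 grew in WT hosts and 3 in hosts with the genotype Stat2 KO, and all were harvested on day 20. The genotype is that of the host, no label says that the implanted cells lack Stat2, and ages are not stated in the labels. STAT2 is a transcription factor that type I interferon activates and that works together with IRF9. The submitters describe larger tumours in the hosts without Stat2. A tumour of this kind mixes melanoma cells with host cells, so a lower value in bulk RNA cannot tell fewer cells of a type from less RNA per cell.

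As a check of the labels, all 11 melanocyte and melanoma markers listed were measured. Their mean log2 level was 10.7 to 11.3 in the 6 tumours, against a median of 6.33 over all genes. Of these markers 0 read below 5.21, the median log2 value of 1105 olfactory receptor genes used as a reference for dim probe sets. No measured B cell or macrophage marker did either, and the melanocyte markers do not check the host genotype. Stat2 itself read 6.45, 6.48 and 6.33 in the Stat2 KO group against 6.79, 6.70 and 6.70 in the WT group (log2). Its groups did not overlap, but 5.11% of all genes were separated in that direction, so this is a weak check. Which exons its probe set covers was not known here. Correlations between arrays ranged from 0.964 to 0.986 across genes. None of the 8 members lay near the dim reference, since their lowest single value was 6.36.

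Enzymes of the PARP family transfer ADP-ribose from NAD to proteins or nucleic acids. PARP1 and PARP2 build chains of ADP-ribose at broken DNA, whereas most other members attach single units. A group of the latter is known to be induced by interferon and to act against viruses. PARP9 itself has little or no catalytic activity and works in a complex with DTX3L, which attaches ubiquitin, and PARP14 carries macrodomains that bind ADP-ribose. In the mouse reference annotation Dtx3l and Parp9 are neighbouring genes on chromosome 16, where Parp14 also lies.

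Tumours of the 2 host genotypes were compared to see how far the expression of these genes in the tumour depended on STAT2 in the host. Parp12 and Parp8 had the largest differences of the 8 members, both lower in Stat2 KO hosts, and the other 6 differed by -0.15 to 0.047 log2 units. With limma and Benjamini-Hochberg adjustment over all genes, 0 of the 8 members passed an adjusted p of 0.05, where 0.00902% of all genes did. At an unadjusted p under 0.05 there were 2 members, Parp12 and Parp8, both lower, where 8.82% of all genes passed in either direction and 3.48% in the lower one. The 4 measured interferon-linked members were all lower, with a median difference of -0.13 against 0.021 over all genes, and 46% of all genes were lower by any amount. All 8 members were among the 11090 genes above the median level, where the median difference was -0.068. Parp14 lost that direction when single tumours were left out, as given with its values. Parp1 and Parp2, the non-interferon members, were lower too, with a median of -0.083, although the difference of Parp1 turned to 0.037 after a further quantile normalization and to 0.047 after cyclic loess.

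**Figure D1:**
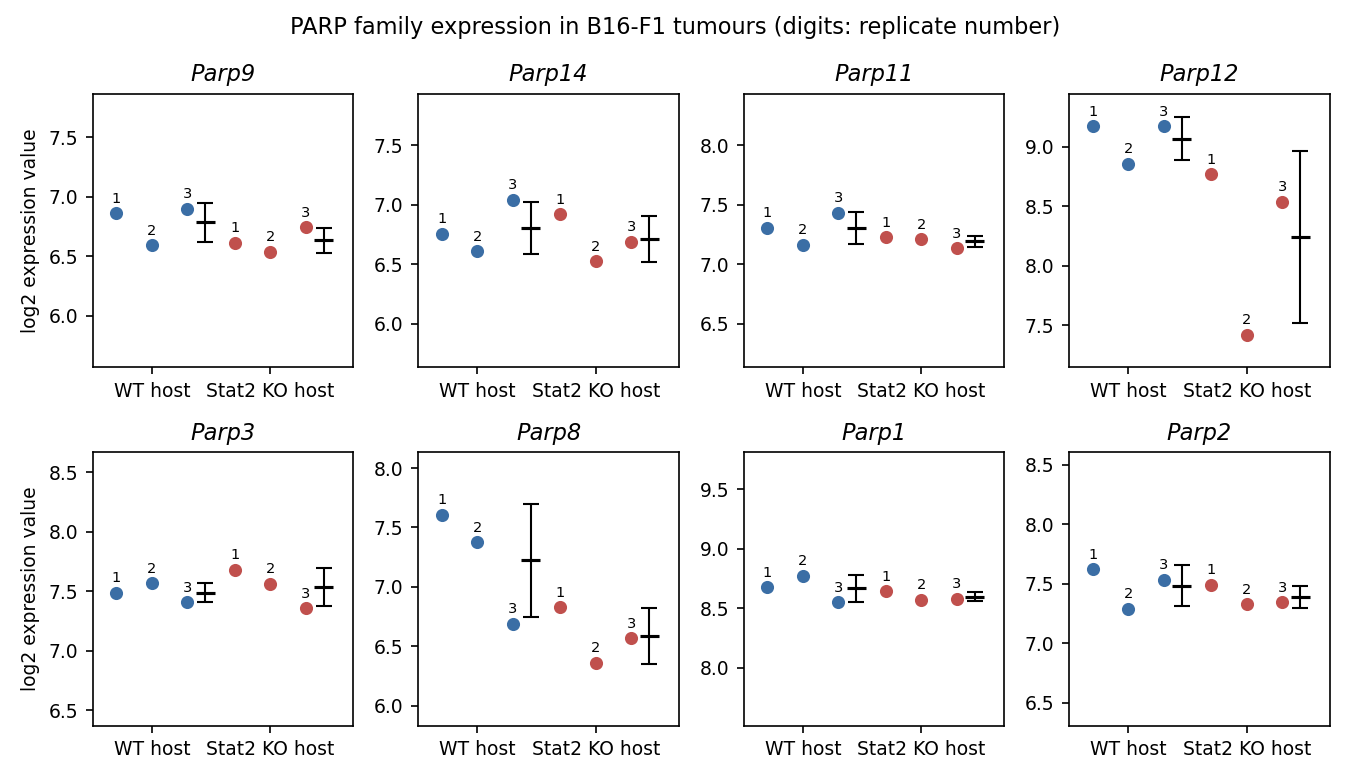
Log2 expression value of the 8 measured genes in each tumour, by host; points are tumours, digits give the replicate number, and the bar beside each group is the mean ± SD of 3 tumours. Every panel spans the same number of log2 units. Parp12 of Stat2 KO replicate 2, at 7.42, stands apart from the other 5 tumours, and for 7 of the 8 genes the groups overlap.

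Parp12 encodes an enzyme with zinc fingers that attaches single ADP-ribose units and restricts RNA viruses. Its log2 values were 8.77, 7.42 and 8.54 in the Stat2 KO group, replicates 1 to 3, against 9.17, 8.86 and 9.17 in the WT group. All 3 tumours of Stat2 KO hosts lay below all 3 of WT hosts, with a gap of 0.089 between the groups, and the tumour of Stat2 KO replicate 2 was far below the rest. This was the 1 member of 8 whose groups did not overlap in the lower direction, where 5.11% of all genes were separated in that way. The means were 8.24 ± 0.721 in the Stat2 KO group and 9.07 ± 0.182 in the WT group (log2, SD, n = 3 each). The difference was -0.83 (SE 0.276, 95% interval -1.43 to -0.22), or 43.6% lower, with a limma adjusted p of 0.486 and an exact two-sided permutation p of 0.1, the smallest that 3 against 3 can give. Without Stat2 KO replicate 2 the difference was -0.41 (SE 0.150, limma adjusted p = 0.647), and without Stat2 KO replicate 1 it was -1.09. The size for Parp12 therefore rested in large part on 1 tumour, while the order of the groups did not.

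Parp9 had values of 6.61, 6.54 and 6.75 in the Stat2 KO group against 6.86, 6.59 and 6.90 in the WT group. WT replicate 2 lay among the Stat2 KO tumours, so the groups overlapped. The difference of Parp9 was -0.15 (SE 0.139, limma adjusted p = 0.747), and its 95% interval ran from 27.0% lower to 11.0% higher. It was -0.25 without WT replicate 2 and -0.016 with array weights. The probe set annotated to both Dtx3l and Parp9, which measures neither gene alone, read 6.72, 6.21 and 6.50 in the Stat2 KO group against 6.55, 6.81 and 7.03 in the WT group. Its groups overlapped, with a difference of -0.32 (SE 0.169, limma adjusted p = 0.61).

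For Parp14, which encodes the large enzyme with macrodomains, the values were 6.92, 6.53 and 6.69 in the Stat2 KO group against 6.76, 6.61 and 7.04 in the WT group. The tumours of both hosts were interleaved over the whole range. The difference was -0.092 (SE 0.157, limma adjusted p = 0.864), with a 95% interval from 25.9% lower to 18.8% higher. Its sign was not stable: leaving out WT replicate 3 gave 0.027, and leaving out Stat2 KO replicate 2 gave 5.8e-05.

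Parp11 encodes an enzyme that attaches single ADP-ribose units and is known to act on the turnover of the type I interferon receptor. It read 7.23, 7.21 and 7.14 in the Stat2 KO group against 7.31, 7.16 and 7.44 in the WT group. The 3 Stat2 KO tumours lay within 0.091 log2 units of each other, inside or just below the range of WT tumours. The difference was -0.11 (SE 0.132, limma adjusted p = 0.806), with a 95% interval from 24.1% lower to 13.0% higher. Values between -0.18 without WT replicate 2 and -0.034 after a further quantile normalization were obtained under the alternatives. Parp10, another enzyme that attaches single units, shares its probe set with the cytoskeletal linker gene Plec. That probe set read 7.08, 7.10 and 6.87 in the Stat2 KO group against 7.21, 7.17 and 7.02 in the WT group, a difference of -0.12 (SE 0.134, limma adjusted p = 0.791).

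**Figure D2:**
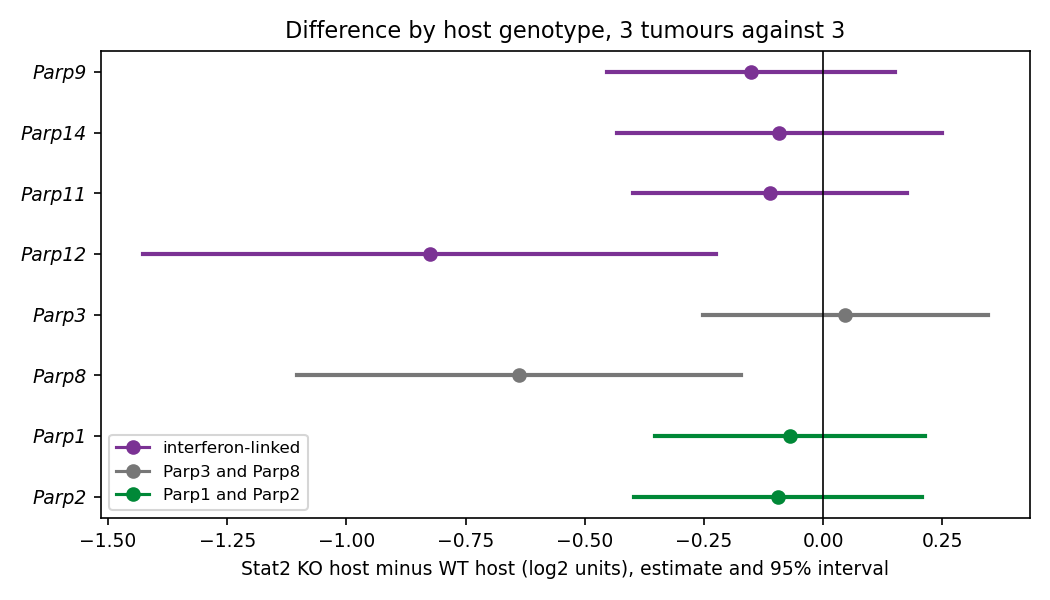
Difference of Stat2 KO minus WT hosts in log2 units for the 8 measured genes, with the 95% interval of the limma fit, not adjusted for the number of genes. The intervals of Parp12 and Parp8 lie below 0 and those of the other 6 genes span it.

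Of the interferon-linked members, all 4 with a probe set of their own had their highest value in WT replicate 3. For Parp12 this was 9.174 against 9.173 in WT replicate 1, in effect a tie. WT replicate 3 also held the highest mean level of the interferon gamma response list, 6.97 against 6.54 and 6.40 in WT replicates 1 and 2, while the Stat2 KO group ran from 6.01 to 6.13. The same held for the type I interferon list, with 6.98 against 6.82 and 6.78, and 6.48 to 6.69 in the Stat2 KO group. WT replicate 3 was the highest tumour for 12.3% of all genes. Whether the level of either response accounts for the values of the PARP genes was not tested.

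Parp8, whose product attaches single ADP-ribose units, is not among the interferon-linked members. It read 6.83, 6.36 and 6.57 in the Stat2 KO group against 7.61, 7.38 and 6.69 in the WT group. WT replicates 1 and 2 were above all others, and WT replicate 3 lay within the range of the Stat2 KO tumours. The means were 6.59 ± 0.234 and 7.22 ± 0.475 (SD, n = 3 each), a difference of -0.64 (SE 0.214, 95% interval -1.10 to -0.17), or 35.7% lower, with a limma adjusted p of 0.489 and an exact two-sided permutation p of 0.2. Without WT replicate 3 the Parp8 difference was -0.90 (limma adjusted p = 0.093), and without WT replicate 1 it was -0.45 (limma adjusted p = 0.951). WT replicate 3 was thus the highest tumour for the interferon-linked genes and the lowest WT tumour for Parp8.

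Parp3, an enzyme of DNA double-strand break repair, was the 1 member with a higher mean in Stat2 KO hosts. The values were 7.68, 7.56 and 7.36 in the Stat2 KO group against 7.49, 7.57 and 7.41 in the WT group, so the WT tumours lay inside the spread of the others. The difference was 0.047 (SE 0.137, limma adjusted p = 0.927), with a 95% interval of -0.25 to 0.34 log2 units. It turned to -0.026 without Stat2 KO replicate 1.

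Parp1, the main sensor of DNA strand breaks in the family, read 8.64, 8.57 and 8.58 in the Stat2 KO group against 8.68, 8.77 and 8.55 in the WT group. Its 6 tumours lay close together and the groups overlapped. The difference was -0.070 (SE 0.130, limma adjusted p = 0.878), with a 95% interval from 21.7% lower to 15.9% higher. Parp2, which acts beside PARP1, read 7.49, 7.33 and 7.35 in the Stat2 KO group against 7.63, 7.29 and 7.54 in the WT group, and the lowest of all 6 values was a WT tumour. Its difference was -0.095 (SE 0.139, limma adjusted p = 0.838), with an interval from 24.1% lower to 15.4% higher. The Parp2 difference was -0.19 without WT replicate 2, -0.025 without WT replicate 1 and -0.0024 after a further quantile normalization. The intervals of Parp1 and Parp2 overlap those of Parp9, Parp11 and Parp14 almost completely. Whether members differed from each other in their response to host genotype was not tested.

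**Figure D3:**
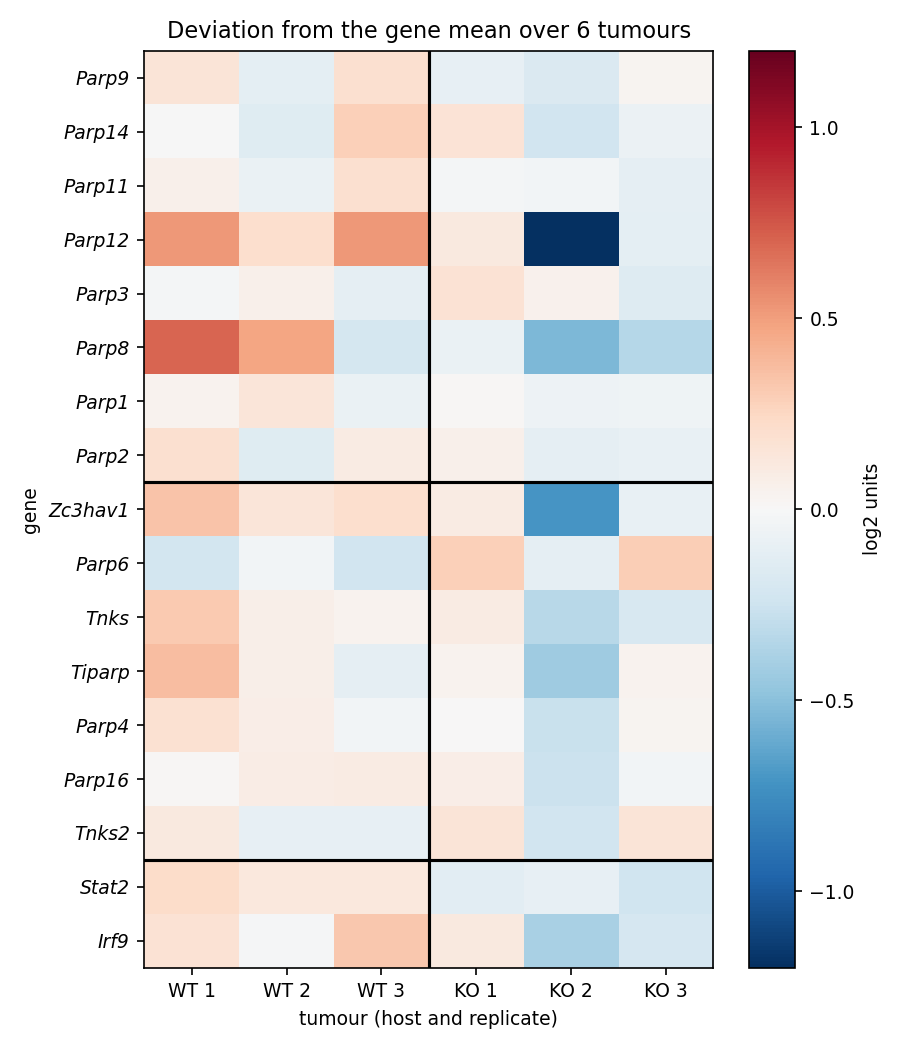
Deviation of each gene from its own mean over the 6 tumours, in log2 units by colour, for the 8 measured members, 7 other PARP family genes, and Stat2 and Irf9; columns are tumours by host and replicate. Stat2 KO replicate 2 is lowest for 4 of the 8 members, Parp12 among them, for Irf9, and for the other PARP family genes except Parp6. Parp8 is highest in WT replicates 1 and 2.

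Sequence upstream of the start was looked at because interferon acts through short promoter elements. RefSeq promoter windows (build GRCm38.p6, 250 bases before to 50 after the start) were matched for 7 of the 10 genes, and Parp9, Parp10 and Parp14 were not matched. The core of the interferon-stimulated response element, GAAANNGAAA, and the core of the gamma activated sequence, TTCNNNGAA, were searched on both strands. Of 32851 windows of this length, 3.44% held the first motif and 8.3% the second. Among the members both were found in 1 of 8 windows, the first of the Parp11 windows, where the matches TTTCGATTTC, on the strand opposite to the gene, and TTCTTGGAA overlap and begin 44 and 37 bases before the start. The 250 upstream bases are shown for that Parp11 window, chr6:127446590-127446839 (+ strand), for Parp12, the interferon-linked gene with the largest difference, chr6:39118350-39118599 (- strand), and for Parp1 as a non-interferon gene, chr1:180568641-180568890 (+ strand). Capitals mark the match to the first motif.
Parp11: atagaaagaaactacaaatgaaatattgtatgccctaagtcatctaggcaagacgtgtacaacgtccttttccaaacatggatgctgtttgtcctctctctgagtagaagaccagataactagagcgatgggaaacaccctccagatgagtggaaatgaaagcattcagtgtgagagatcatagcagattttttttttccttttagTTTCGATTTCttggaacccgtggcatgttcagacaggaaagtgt
Parp12: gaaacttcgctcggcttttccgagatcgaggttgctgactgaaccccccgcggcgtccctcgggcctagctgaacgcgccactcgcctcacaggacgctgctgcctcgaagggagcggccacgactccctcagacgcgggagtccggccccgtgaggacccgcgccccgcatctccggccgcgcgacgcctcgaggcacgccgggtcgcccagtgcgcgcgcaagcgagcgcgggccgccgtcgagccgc
Parp1: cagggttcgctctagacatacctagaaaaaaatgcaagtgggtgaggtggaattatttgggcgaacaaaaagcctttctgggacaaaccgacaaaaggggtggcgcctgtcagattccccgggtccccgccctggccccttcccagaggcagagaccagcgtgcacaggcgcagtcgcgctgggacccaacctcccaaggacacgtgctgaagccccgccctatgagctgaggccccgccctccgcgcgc

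The windows of Dtx3l, Parp12, Parp3, Parp8, Parp1 and Parp2 and the second Parp11 window did not hold these letters. A match describes letters only, and the arrays do not measure binding.

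The other genes of the PARP family differed in both directions. Of 7 measured, 5 were lower and 2 higher, 0 passed the adjusted threshold, 1 passed an unadjusted p of 0.05, and the median was -0.15, or -0.057 without Stat2 KO replicate 2. Zc3hav1, the zinc-finger antiviral protein also called PARP13, which binds viral RNA, read 8.43, 7.63 and 8.25 in the Stat2 KO group against 8.68, 8.48 and 8.53 in the WT group. Its groups did not overlap, again with Stat2 KO replicate 2 lowest (difference -0.46, SE 0.190, limma adjusted p = 0.537). It was the 1 gene of the 7 separated in that direction, where 5.11% of all genes were. Parp6 was on the other side, with 7.20, 6.81 and 7.21 against 6.70, 6.88 and 6.69 (difference 0.32, SE 0.149, limma adjusted p = 0.568). Tnks, which encodes tankyrase, and Tiparp, an enzyme induced by the aryl hydrocarbon receptor, differed by -0.28 and -0.23 with overlapping groups. Stat2 KO replicate 2 was the lowest tumour for all of these genes except Parp6. The mean log2 level of the 7 genes was 7.76 in that tumour against 8.08 to 8.26 in the rest.

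Partners of PARP1 and PARP2 in DNA repair were lower in 9 of 9 measured genes, where 46% of all genes were lower. Their median was -0.19, or -0.13 without Stat2 KO replicate 2, against -0.068 over the genes above the median level. Of the 9, 0 passed the adjusted threshold and 1 an unadjusted p of 0.05, where 8.82% of all genes did. Chd1l, a chromatin remodeller that ADP-ribose activates, differed by -0.34 (SE 0.146, limma adjusted p = 0.551), and the flap endonuclease gene Fen1 by -0.23. These were the 2 genes of 9 with all Stat2 KO tumours below all WT tumours, as had 5.11% of all genes. Tdp1, which releases trapped topoisomerase from DNA, and Aplf, a histone-binding repair factor, differed by -0.27 and -0.21. Genes that remove or read ADP-ribose were lower in 5 of 8 measured and higher in 3, with 0 past either threshold and a median of -0.077 that turned to 0.0036 after a further quantile normalization. Rnf146, a ubiquitin ligase that recognises ADP-ribose chains, was the 1 gene of these 8 whose groups did not overlap (difference -0.30, SE 0.165, limma adjusted p = 0.616). The hydrolase gene Adprhl2 differed by 0.25, Oard1 by -0.26 and Macrod2 by 0.14.

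The relatives of Dtx3l, the Deltex genes, showed no common direction: 2 of 4 were lower and 2 higher, from -0.086 for Dtx2 to 0.15 for Dtx4, with a median of 0.053, or -0.014 with median centring. Dtx1 and Dtx3 differed by 0.14 and -0.030. Genes of NAD supply and use were split as well, with 6 of 13 lower, 7 higher, a median of 0.0015 and 0 past either threshold, and the median was below 0 under all 3 other scalings. Qprt, of NAD synthesis from tryptophan, differed by 0.31, the deacetylase gene Sirt1 by -0.25, the nicotinamide methyltransferase gene Nnmt by -0.24 and the NAD synthetase gene Nadsyn1 by -0.23.

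Genes that carry the interferon signal were lower in 11 of 11 measured, where 46% of all genes were lower. Their median was -0.17 (-0.26 without Stat2 KO replicate 1), with 0 past the adjusted threshold. At an unadjusted p under 0.05 there were 2, Ifngr1 and Stat2, where 8.82% of all genes passed. Stat2 is the gene that the host genotype names, so its lower value adds nothing separate to these counts. Ifngr1, a chain of the interferon gamma receptor, differed by -0.39 (SE 0.145, limma adjusted p = 0.509) and Stat2 by -0.31 (SE 0.126, limma adjusted p = 0.532). Irf9 differed by -0.32 with overlapping groups, and the kinase gene Jak1 by -0.24. In the type I interferon list 21 of 24 genes were lower, with a median of -0.22, 7 at an unadjusted p under 0.05, all lower, and 0 past the adjusted threshold. Cmpk2 (-0.91), Rsad2 (-0.73), Ifit1 (-0.59) and Usp18 (-0.44), all known interferon-induced genes, had groups that did not overlap. They were named for having the smallest p of the list. Of its 24 genes, 5 had all Stat2 KO tumours below all WT tumours, as had 5.11% of all genes. In the interferon gamma list 16 of 18 genes were lower with a median of -0.64, 11 were lower at an unadjusted p under 0.05, and the chemokine gene Cxcl9 passed the adjusted threshold (-1.69, SE 0.209, limma adjusted p = 0.0338). Cxcl9 did not pass in 7 of 15 alternatives, with adjusted p-values of 0.271, 0.0735 and 0.175 without Stat2 KO replicates 1, 2 and 3 and 0.109 without WT replicate 1 (range 0.0058 to 0.271 over all). In the same list Nlrc5, Irgm1 and Psmb8 differed by -0.74, -0.98 and -0.69. With all 6 tumours, the differences of Parp9 (-0.15), Parp11 (-0.11) and Parp14 (-0.092) were smaller than the medians of both interferon lists and that of Parp12 (-0.83) was larger, which was not tested. Without WT replicate 3 the median of the type I list was -0.10, and without Stat2 KO replicate 2 it was -0.14. Without Stat2 KO replicate 2 the difference of Parp12, -0.41, was smaller than the median of the interferon gamma list, -0.57.

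**Figure D4:**
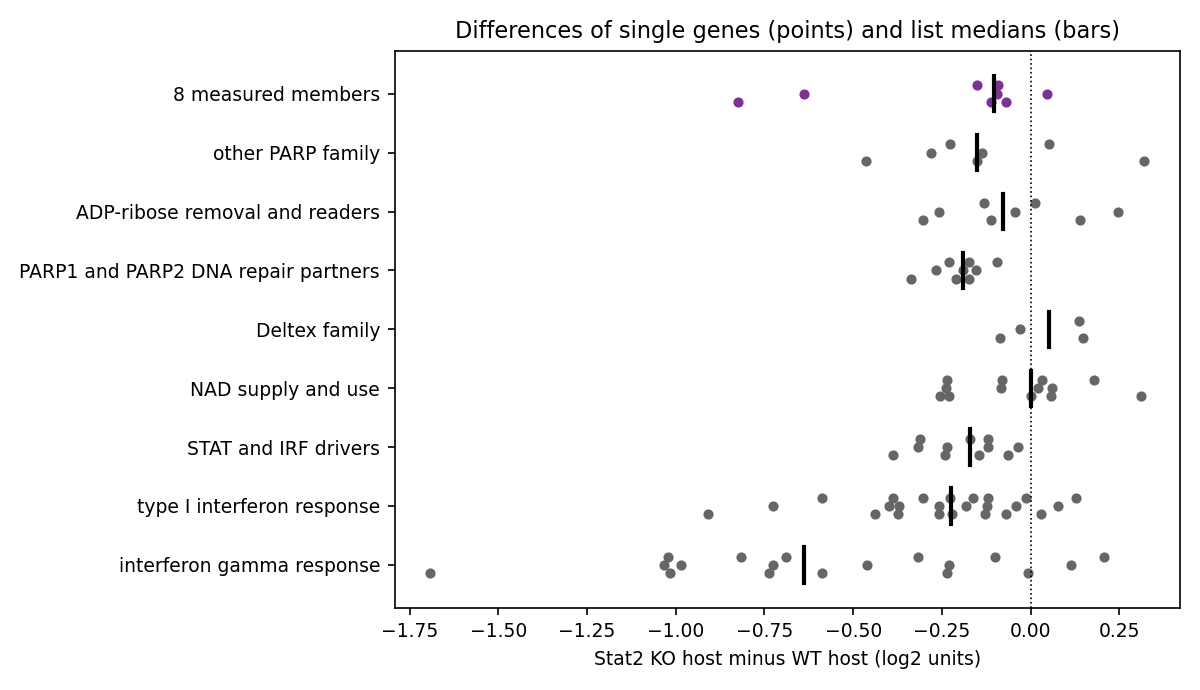
Difference of Stat2 KO minus WT hosts in log2 units for the 8 measured members and for the genes of 8 lists; each point is a gene and each bar the median. The interferon gamma list has the lowest median, -0.64, and 6 of the 8 members lie close to 0.

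By the root mean square distance between values centred on each gene's mean, over 6 tumours and genes above the median level, the profile nearest to Parp12 was that of Lcp1, which encodes an actin-bundling protein of leukocytes, at 0.19 log2 units. Lcp1 read 7.75, 6.73 and 7.40 in the Stat2 KO group against 7.96, 7.96 and 7.94 in the WT group, so it too was lowest in Stat2 KO replicate 2. Dnajb9 and Cenpk followed at 0.194 and 0.203. Nearest to Parp9 were Ercc6l2, Ube2l3 and Det1 at 0.032, 0.052 and 0.055, and nearest to Parp14 were Marf1, Pigbos1 and Kif15 at 0.035, 0.060 and 0.063. No member of the family was among these 9 genes. Among the members, Parp9 lay 0.095 from Parp2, 0.096 from Parp11, 0.138 from Parp14, 0.174 from Parp1 and 0.506 from Parp12. Of the non-interferon genes, Parp2 was thus as near to it as Parp11, while Parp1 was farther than Parp11 and Parp14. The distance is not scaled, so genes that vary little lie near each other.

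Marker lists of other cells were read in the same tumours, where 46% of all genes were lower in Stat2 KO hosts by any amount. Macrophage and monocyte markers were lower in 12 of 13 measured, with a median of -0.29, and their mean log2 level ran from 6.11 to 6.39 in Stat2 KO hosts and from 6.49 to 6.67 in WT hosts. Among them C1qb, Ms4a7, Cd68 and C1qc differed by -0.95, -0.83, -0.61 and -0.49 with groups that did not overlap. These were 4 of the 13, where 5.11% of all genes had all Stat2 KO tumours below all WT tumours. Fibroblast markers were lower in 8 of 9, with a median of -0.31 (-0.20 without Stat2 KO replicate 2) and mean levels of 6.35 to 6.68 against 6.73 to 7.02. Of these 9, 2 were separated in that direction, Dcn and Col3a1. T cell markers were higher in 8 of 9 measured, with a median of 0.15 (0.037 after quantile normalization, 0.031 after cyclic loess) and mean levels of 5.84 to 6.09 against 5.74 to 5.89. B cell markers were higher in 4 of 5, with a median of 0.10 (-0.0037 after quantile normalization, -0.0043 after cyclic loess). The T cell markers Cd28, Cd6 and Cd3g differed by 0.46, 0.24 and 0.25, with all Stat2 KO tumours above all WT tumours. The B cell marker Ms4a1 (0.25) was separated in that direction too, as were 1825 of 22180 genes. No marker of either list was separated in the lower direction. The limma adjusted p of Cd28 was 0.470. Most of these lymphocyte markers were dim. Only Cd8b1, named for its level, lay above the median level of all genes, with a difference of 0.017, and no B cell marker did. The mean level of the melanocyte and melanoma markers ranged from 10.7 to 11.2 in Stat2 KO hosts and from 11.0 to 11.3 in WT hosts. Of these markers 8 of 11 were lower, with a median difference of -0.076 that was 0.075 without Stat2 KO replicate 2. The mean level of the endothelial markers ranged from 7.03 to 7.43 and from 7.28 to 7.36. Of them 4 of 7 were lower, with a median difference of -0.028 whose sign turned after quantile normalization (0.013) and cyclic loess (0.0066). None of these markers passed the adjusted threshold. In Stat2 KO replicate 2, where Parp12 was lowest, the melanocyte, endothelial and fibroblast means were the lowest of all 6 tumours, at 10.7, 7.03 and 6.35. The B cell mean of that tumour was the highest of the 6, at 5.97. Its T cell and macrophage means, 6.07 and 6.27, were neither the highest nor the lowest. The part of these cell populations in the values of Parp12 and Parp8 was not tested.

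**Figure D5:**
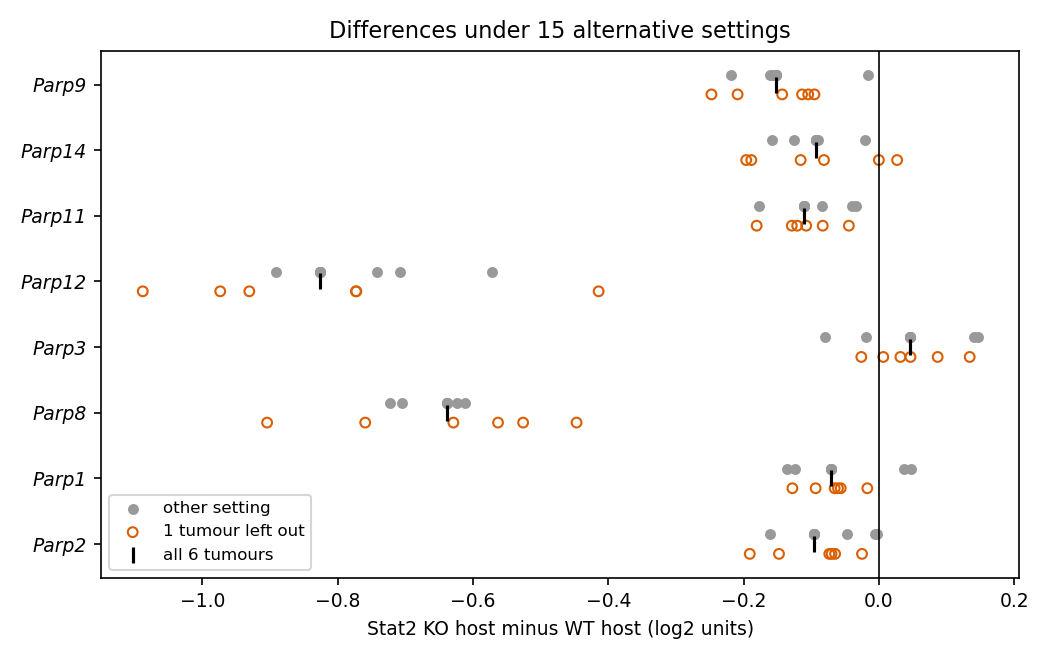
Difference of Stat2 KO minus WT hosts in log2 units for the 8 measured genes with all 6 tumours (bar), with 1 tumour left out (open circles) and under the other settings (filled points). Parp12 and Parp8 stay below 0 in all 15 alternatives and spread most, from -1.09 to -0.41 and from -0.90 to -0.45.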

How the data were processed

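Biotin-labelled cRNA of 6 tumours was read on 1 Affymetrix array each. The deposited values are log2 expression values, summarised per probe set by RMA in the software Affymetrix Expression Console 1.3.1, as the submitters' processing notes name them. RMA evens out the distributions of arrays and compresses differences of dim probe sets. A genome build is not named in the labels. The number of arrays limits the precision, and signal over background was not used here.

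Of 41345 probe sets, 23521 were annotated to 1 gene, 1814 to several and 16010 to none. They gave 22180 genes, and 0 symbols changed through the reference gene table. No filter on dim genes was applied. Differences are Stat2 KO minus WT hosts, fitted over all genes with limma 3.58.1 in R 4.3.3 (lmFit, eBayes with an intensity trend, 4 residual and 8.139 prior degrees of freedom), two-sided, with Benjamini-Hochberg adjustment and a threshold of 0.05. The procedure was tested on simulated data. The labels speak of individual tumours without naming separate mice, so the spread behind each p-value is that between these 6 samples and may be partly technical.

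The members and lists were chosen with earlier results of these data known. Named were all members with a probe set of their own, up to 4 genes of each of 14 lists by the smallest p, Stat2 and Irf9, and the 3 profiles nearest to Parp9, Parp12 and Parp14. Promoters were to be shown for members with a match to the first motif and for Parp1, and that of Parp12 was added after its values were seen. Lists are described by counts and medians. The name Parp7, another name of Tiparp, was not counted as a gene. Alternatives were a replicate block, quantile normalization, median centring, cyclic loess, the mean of a gene's probe sets, genes above the median level, eBayes without trend or robust, array weights, other thresholds, and each tumour left out.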

Additional observations from a re-analysis of the deposited data

How the results depend on the processing

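All 8 measured genes stayed on the same side of the threshold in all 15 alternative fits, with 0 members passing in each. Parp9, Parp11, Parp12, Parp8 and Parp2 kept their direction in all of them. The sign of Parp1 turned after a further quantile normalization (0.037) and after cyclic loess (0.047), and that of Parp3 after median centring (-0.019) and with array weights (-0.080). With single tumours left out Parp14 ran from -0.20 to 0.027 and Parp3 from -0.026 to 0.13. The cause was not tested. The count of 2 genes past the threshold was 0 after quantile normalization, 1 after cyclic loess, 1 without the trend, 257 with array weights, 0 to 17 with 1 tumour left out, and 1956 at an unadjusted p under 0.05, where 2 members passed. With array weights the limma adjusted p of Parp12 was 0.131 and that of Parp8 0.0549, the lowest of their alternatives, which reached 0.887 and 0.951. Deviations of tumours with the same replicate number correlated at 0.24, 0.079 and 0.0302, and 3 of 6 tumours correlated best with their own number. With 3 tumours per group, this cannot settle whether the numbers pair the tumours. With a replicate block the count of genes was 3 and that of members 0. The block lowered the SE of Parp12 from 0.276 to 0.184 (limma adjusted p = 0.204). For Parp8 the SE went from 0.214 to 0.169 (limma adjusted p = 0.253). Over the 14 lists and their alternatives, 17 medians lay more than 1 SD between tumours from the value with all settings as reported and 192 lay nearer. The median difference of all 22180 genes stayed between -0.045 and 0.032, and that of the 11090 genes above the median level was -0.068.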

Other observations

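The low Parp12 value of Stat2 KO replicate 2 was set beside all other genes. That tumour was the lowest of 6 by more than 1 log2 unit for 6 of 22180 genes, and Parp12 was the second of them, 1.12 below the next tumour. The others were the complement gene C2 (7.14 against 8.29 to 8.92 in the rest), the interferon-induced gene Ifi27 (7.47 against 8.50 to 8.82), the plexin gene Plxnc1, Fkbp2, and Vmn2r75, a pheromone receptor gene whose values of 1.57 to 3.43 lie below the dim reference of 5.21. The tumour was lowest by any amount for 22.7% of all genes and for 4 of the 8 members, and highest for 26.6% of all genes, the largest share of the 6 tumours. Its array had the highest median log2 value of the 6, 6.44, and the lowest array weight, 0.51. WT replicate 1 was lowest for 22.8% of all genes, and WT replicates 1 and 2 were each lowest by more than 1 log2 unit for 5 genes. These genes were chosen after their values were seen.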
